A study of Homo sapiens with 6 samples.

Results

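CLK1 to CLK4 and the SR protein genes SRSF1, SRSF2, SRSF3, SRSF5, SRSF6 and SRSF7 were examined in MDA-MB-231, a triple-negative breast carcinoma line of human origin, after exposure to nitidine chloride (NCD), a benzophenanthridine alkaloid from plants. The 10 genes were matched by symbol to the 63241 Ensembl identifiers of the count files, and all 10 passed the filter on low counts and were among the 15295 genes tested. Wild-type cells of this single line received 5 μM NCD or the vehicle alone (0.1% DMSO), RNA was taken at 24 h, and 3 libraries were made in each group. For NCD replicates 2 and 3 the description line carries a cell line number that differs from the cell line field, and the field was followed. Nothing in the labels says whether the 3 libraries of a group came from separate cultures, so p-values measure the spread between these libraries, which may be technical.

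SR proteins bind exonic sequences of pre-mRNA through RNA recognition motifs and recruit the spliceosome through a tail rich in arginine and serine. CLKs are nuclear dual-specificity kinases that phosphorylate this tail and release SR proteins from nuclear speckles, while the SRPKs phosphorylate it in the cytoplasm before import. Both families control their own transcripts: SR genes carry poison exons whose inclusion sends the mRNA to nonsense-mediated decay, and CLK1 and CLK4 transcripts are partly held in the nucleus with introns retained. The counts analysed here are sums over all transcripts of a gene, so such forms were not separated.

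Library totals ranged from 18223594 to 21629653 counts, and the members had at least 265 counts in every library. Chi-square per degree of freedom between libraries of a group was 2.05 for NCD replicates 1 and 2, but 14.4 and 12.9 for NCD replicate 3 against these, and 4.17 to 15.4 among the DMSO libraries, so none agreed within sampling noise. Markers of MDA-MB-231 (VIM, CD44, AXL, CAV1, MSN and EGFR) were each at 26.1 CPM or more in every library. CPM is a gene's count as a rate per fixed number of library counts, after TMM scaling, which lines up the libraries on the bulk of their genes. Their summed level was 6364 to 6648 CPM with DMSO and 3804 to 4101 CPM with NCD. Of 6 markers listed as low in this line, ESR1, PGR and CDH1 were at or near 0 while ERBB2 reached 62.6 CPM, and the sum of the 6 was 44.6 to 47.3 CPM with DMSO and 70.0 to 74.0 CPM with NCD. The sum of 8 markers of blood, liver, endothelial and stromal cells was 0.844 to 1.43 and 1.14 to 1.54 CPM, with HBB at 0 in all libraries. The share of counts from mitochondrial mRNAs was 5.75% to 6.06% with DMSO and 3.96% to 4.03% with NCD, and the part of these shifts in the results below was not tested.

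A gene was called when its edgeR adjusted p was below 0.05 and its absolute log2 fold change was above 1. SRSF1 and SRSF2 were called, both lower with NCD, and the other 8 members were not. Among all tested genes 31.0% were called (17.5% lower and 13.5% higher), so 2 of 10 lower is close to the background. The median log2 fold change of the 10 members was -0.15, against 0.04 over all tested genes. At any fold, 69.3% of all tested genes had an adjusted p below 0.05 and 34.1% did so with a lower level. Among the members 4 did so with a lower level (SRSF1, SRSF2, SRSF3 and SRSF7) and 0 with a higher one. In the same 4 genes every NCD library lay below every DMSO library, which was the case for 35.3% of all tested genes. In bulk RNA a lower level in every cell cannot be told apart from a loss in some of the cells.

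**Figure D1:**
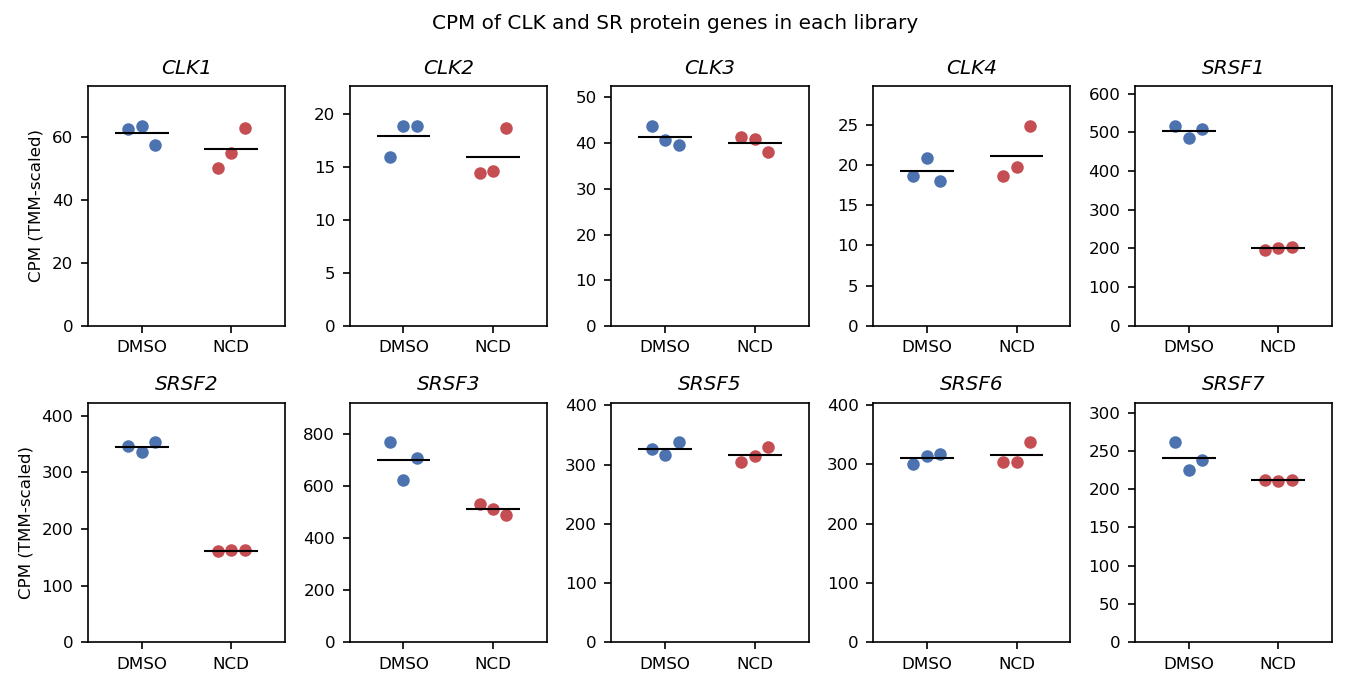
CPM (TMM-scaled, y axis from 0) of each member in the 3 DMSO and 3 NCD libraries, 1 point per library with a line at the group mean. The NCD points of SRSF1, SRSF2, SRSF3 and SRSF7 lie below all their DMSO points, and those of the other 6 genes overlap with DMSO.

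SRSF1 (ENSG00000136450; chromosome 17, 58003360 to 58007346, minus strand), the founding SR protein and a splicing factor that also acts in mRNA export and translation, had the largest change of the 10 genes. It had 516, 486 and 508 CPM with DMSO and 197, 202 and 203 CPM with NCD. All 3 NCD libraries were thus far below the lowest DMSO library. The NCD mean of 201 ± 3.14 CPM was 39.9% of the DMSO mean of 504 ± 15.5 CPM (SD over 3 libraries each). By edgeR this was a log2 fold change of -1.33 with a standard error of 0.055 (Benjamini-Hochberg adjusted p = 9.42e-08) and a 95% interval from -1.45 to -1.20. AC015813.2, annotated on the same strand over 3887 bases of SRSF1, had 152 to 423 counts per library. The split of counts between the overlapping genes is uncertain, and the sum of both gave a log2 ratio of mean CPM of -1.25.

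SRSF2 (ENSG00000161547; chromosome 17, 76734115 to 76737374, minus strand), an SR protein that stays in the nucleus and acts in exon inclusion, was the other member called. It had 347, 336 and 353 CPM with DMSO and 161, 162 and 162 CPM with NCD. The NCD libraries were nearly equal and well below all DMSO libraries. The log2 fold change was -1.09 (standard error 0.05, edgeR adjusted p = 2.14e-07), and the 95% interval from -1.21 to -0.97 reached across the fold threshold. Scaling by library totals in place of TMM left it lower at -0.90, short of that threshold. This scaling moved the log2 fold changes of all genes by a median of 0.20 and turned 2067 higher and 2669 lower calls into 2793 higher and 2181 lower. Relative to the median of all tested genes, SRSF2 stood at -1.13 under both scalings. This follows by construction, since the change of scaling shifted all genes nearly alike. MFSD11 overlaps SRSF2 on the opposite strand, and whether counting used strand is not given in the sources used here. MFSD11 had 252 to 447 counts per library, and adding them all to SRSF2 gave a log2 ratio of mean CPM of -0.996.

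SRSF3 (ENSG00000112081; chromosome 6, 36594353 to 36605600, plus strand), the smallest SR protein, which also promotes export of mRNA, had 766, 623 and 706 CPM with DMSO and 530, 512 and 487 CPM with NCD. The groups did not overlap, although the DMSO libraries were spread widely. The log2 fold change of -0.45 (standard error 0.08, edgeR adjusted p = 0.000959) was short of the fold threshold, and the NCD mean was 73.0% of the DMSO mean. SRSF7 (ENSG00000115875; chromosome 2, 38743599 to 38751494, minus strand), a close relative of SRSF3 that carries a zinc knuckle, had 261, 225 and 238 CPM with DMSO and 212, 210 and 212 CPM with NCD. Its groups were also apart, by a narrow gap. The log2 fold change was -0.19 (standard error 0.07, edgeR adjusted p = 0.0275), and with library totals it was 0.0090 (edgeR adjusted p = 0.893), so the lower level of SRSF7 rests on the scaling. Relative to the median of all tested genes, SRSF7 stood at -0.23 with TMM and -0.22 with library totals, which again follows by construction. Its edgeR adjusted p was 0.0577 with DMSO replicate 1 left out, 0.0550 with NCD replicate 1 left out and 0.0868 with NCD replicate 2 left out.

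SRSF5 and SRSF6, both activators of exon inclusion, had overlapping groups. SRSF5 (ENSG00000100650; chromosome 14, 69726900 to 69772005, plus strand) had 326, 317 and 337 CPM with DMSO and 305, 315 and 329 CPM with NCD. The change was -0.05 in log2 (standard error 0.06, edgeR adjusted p = 0.493), with a 95% interval from -0.18 to 0.08. SRSF6 (ENSG00000124193; chromosome 20, 43457928 to 43464247, plus strand) had 301, 314 and 318 CPM with DMSO and 304, 303 and 337 CPM with NCD. The change was 0.02 in log2 (standard error 0.06, edgeR adjusted p = 0.813), with a 95% interval from -0.12 to 0.16. Changes as large as those of SRSF1 and SRSF2 lay outside both intervals. With library totals the log2 fold changes were 0.15 for SRSF5 (edgeR adjusted p = 0.0425) and 0.22 for SRSF6 (edgeR adjusted p = 0.0203), about the shift of all genes.

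None of the 4 CLK genes was called in either direction. CLK1 (ENSG00000013441; chromosome 2, 200853009 to 200864744, minus strand), the best studied kinase of the family, had 62.7, 63.5 and 57.5 CPM with DMSO and 50.2, 55.1 and 63.0 CPM with NCD. NCD replicate 3 lay among the DMSO libraries and the other 2 below them. The log2 fold change was -0.13 (standard error 0.09, edgeR adjusted p = 0.249), with a 95% interval from -0.34 to 0.08. Without NCD replicate 3 it was -0.23 (edgeR adjusted p = 0.0226). CLK4 (ENSG00000113240; chromosome 5, 178602664 to 178630615, minus strand), the kinase closest to CLK1, had 18.7, 20.9 and 18.03 CPM with DMSO and 18.6, 19.8 and 24.9 CPM with NCD. The change was 0.13 in log2 (standard error 0.12, edgeR adjusted p = 0.355), and the positive sign rested on NCD replicate 3, without which it was -0.02.

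CLK2 (ENSG00000176444; chromosome 1, 155262868 to 155278491, minus strand), a CLK that is also regulated by insulin in the liver, had 15.97, 18.8 and 18.9 CPM with DMSO and 14.4, 14.6 and 18.7 CPM with NCD. The groups overlapped through NCD replicate 3. The log2 fold change was -0.17 (standard error 0.13, edgeR adjusted p = 0.262), with a 95% interval from -0.46 to 0.12. Without NCD replicate 3 it was -0.32 (edgeR adjusted p = 0.0235), and as for CLK1 that library decides whether the adjusted p passes. CLK3 (ENSG00000179335; chromosome 15, 74598500 to 74645414, plus strand), known for its level in testis, had 43.8, 40.7 and 39.6 CPM with DMSO and 41.4, 40.9 and 38.0 CPM with NCD. The change was -0.04 in log2 (standard error 0.07, edgeR adjusted p = 0.606), with a 95% interval from -0.21 to 0.12. A change past the fold threshold lay outside the interval of every CLK. HCN3 overlaps CLK2 and had 35 to 131 counts per library, and EDC3 overlaps CLK3 with 667 to 806 counts, each on the opposite strand, so both CLK counts are uncertain if strand was not used. Adding these counts gave a log2 ratio of mean CPM of 0.02 for CLK2 and -0.11 for CLK3. Exact permutation of the 3 against 3 libraries (CPM, two-sided) gave p = 0.1 for SRSF1, SRSF2, SRSF3 and SRSF7, the smallest this design allows, and p from 0.2 to 0.8 for the other members.

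**Figure D2:**
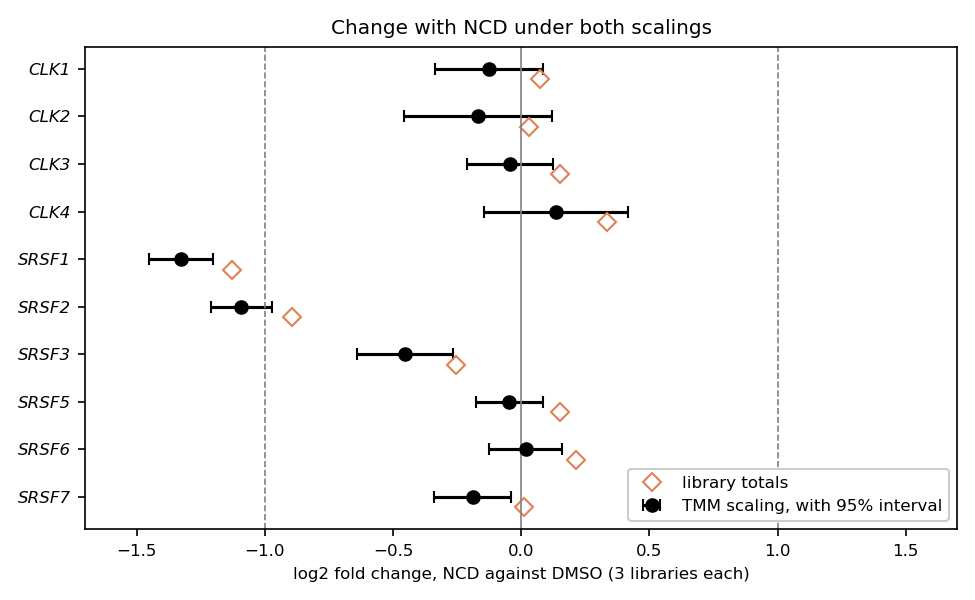
Log2 fold change of each member (x axis), with filled points and 95% intervals from edgeR with TMM scaling, open diamonds for library totals, and dashed lines at the fold threshold. Only SRSF1 lies past -1 under both scalings, and SRSF2 moves from -1.09 to -0.90.

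Ratios between members within a library do not depend on how the libraries were scaled. The ratio of SRSF1 to SRSF6 counts was 1.71, 1.55 and 1.599 with DMSO and 0.648, 0.667 and 0.604 with NCD. SRSF6 thus went from fewer to more counts than SRSF1 in every library. The ratio of SRSF2 to SRSF5 counts was 1.05 to 1.06 with DMSO and 0.493 to 0.528 with NCD. The ratio of SRSF1 to SRSF2 was 1.44 to 1.49 with DMSO and 1.23 to 1.25 with NCD. The ratio of CLK1 to CLK4 was 3.04 to 3.36 with DMSO and 2.54 to 2.79 with NCD, without overlap although neither gene was called. These ratios were chosen after the values had been seen and are given without a test.

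Levels of different genes were compared as CPM per kb of merged exons. With DMSO the order was SRSF1 (151 ± 4.64 CPM per kb, SD, n = 3), SRSF2 (114 ± 2.87), SRSF3 (98.1 ± 10.1), SRSF6 (67.7 ± 1.90), SRSF5 (61.0 ± 1.93) and SRSF7 (59.6 ± 4.54). The libraries of SRSF5 and SRSF7 overlapped, and those of the other neighbours did not. The CLKs followed at 11.8 ± 0.634 for CLK1, 4.87 ± 0.453 for CLK2, 2.42 ± 0.188 for CLK4 and 2.02 ± 0.104 for CLK3. With NCD the order of the CLKs was the same, while SRSF3 led at 71.6 ± 3.04 CPM per kb, overlapping SRSF6 at 68.5 ± 4.11. SRSF1 was next at 60.2 ± 0.941, overlapping SRSF5 at 59.1 ± 2.27, and SRSF2 (53.6 ± 0.259) and SRSF7 (52.2 ± 0.206) came last of the SR genes. The summed level of the 6 SR genes was 527 to 568 CPM per kb with DMSO and 362 to 370 with NCD. The share of SRSF1 in this sum was 27.2% to 27.6% with DMSO and 16.3% to 16.7% with NCD, and that of SRSF6 was 11.5% to 13.0% and 18.2% to 19.8%. The summed level of the CLKs was 20.5 to 22.1 CPM per kb with DMSO and 18.02 to 22.3 with NCD, so the groups overlapped. The order of the SR genes depends on the length used, and that of the CLKs does not. Per kb of the longest annotated transcript, the DMSO means were 165 CPM per kb for SRSF3, 162 for SRSF1, 120 for SRSF2, 107 for SRSF5, 84.4 for SRSF7 and 71.9 for SRSF6. The NCD means on that length were 121 CPM per kb for SRSF3, 104 for SRSF5, 74.0 for SRSF7, 72.8 for SRSF6, 64.5 for SRSF1 and 56.1 for SRSF2. SRSF3 led with NCD on both lengths, while SRSF7 moved from the last place to a middle one.

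**Figure D3:**
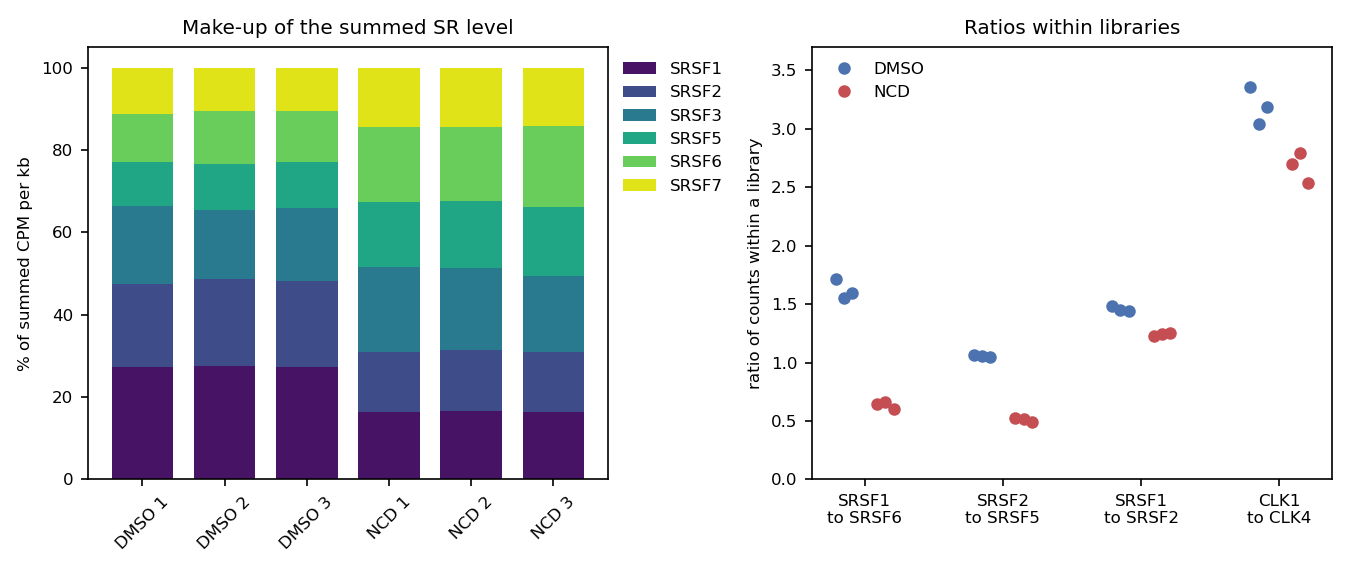
Left, percentage of the summed CPM per kb of the 6 SR genes taken by each gene in each library. Right, ratios of counts between members within each library, 1 point per library. The SRSF1 share is at most 16.7% with NCD against at least 27.2% with DMSO, and the plotted ratios do not overlap between the groups.

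The members are short to middle-sized genes. Spans were taken between the outermost ends annotated in GENCODE release 29. SRSF2 spans 3.3 kb, SRSF1 4.0 kb, SRSF6 6.3 kb and SRSF7 7.9 kb. The widest by this measure are SRSF5 at 45.1 kb and CLK3 at 46.9 kb. In these libraries the fold change varied with gene span over all genes. In the span decile that holds SRSF2, up to 3.7 kb, the median log2 fold change of tested genes was 0.24 and 9.25% were called lower. In the decile of SRSF1, SRSF6 and SRSF7, from 3.7 to 8.0 kb, the median was 0.39 and 4.16% were called lower. CLK1 and SRSF3 lie in the decile from 8.0 to 13.2 kb with a median of 0.41, CLK2 in the next with 0.43, and CLK4 in the one above that with 0.32. SRSF5 and CLK3 lie in the decile from 41.2 to 58.9 kb with a median of -0.03. Of the 10 members, 8 stood below the median of their own decile by more than the standard error. CLK3 and SRSF5 differed from theirs by less than it, but their deciles rest on the outermost GENCODE ends. Their RefSeq promoter windows, described below, end inside these spans, for CLK3 at 74608371 and 74615835. For SRSF5 the window ends at 69767141, and the gene ends at 69772005. Spans from the RefSeq starts would be shorter, and deciles on that measure were not computed. In GENCODE release 29, 9 of the 10 members have at least 1 transcript annotated as subject to nonsense-mediated decay, against 43.3% of the 12687 tested protein-coding genes, and 8 have at least 1 with a retained intron, against 57.2%. CLK1 has 8 retained-intron transcripts among 15 and SRSF7 has 6 nonsense-mediated decay transcripts among 12, while CLK2 has 0 of either kind.

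Promoter sequence was read from RefSeq (build GRCh38.p14) as the 250 bases before each annotated start, with 12 windows for 9 of the 10 members. SRSF2, one of the called genes, is the member without a window. Of these, 4 are shown to set genes that were lower with NCD (SRSF1 and SRSF3) beside genes whose groups overlapped (SRSF6 and CLK4). They are written in the direction of transcription, for SRSF1 from chr17:58007247-58007496 (minus strand), for SRSF3 from chr6:36594112-36594361 (plus strand), for SRSF6 from chr20:43457646-43457895 (plus strand) and for CLK4 from chr5:178627051-178627300 (minus strand). Capitals mark matches on either strand to the TATA box TATAAA, the NF-Y box CCAAT, the Sp1 box GGGCGG, the ETS core CCGGAA, the cAMP response element TGACGTCA or the ATF4 core TGATGNAA, and no 2 matches overlap in the windows shown.
SRSF1: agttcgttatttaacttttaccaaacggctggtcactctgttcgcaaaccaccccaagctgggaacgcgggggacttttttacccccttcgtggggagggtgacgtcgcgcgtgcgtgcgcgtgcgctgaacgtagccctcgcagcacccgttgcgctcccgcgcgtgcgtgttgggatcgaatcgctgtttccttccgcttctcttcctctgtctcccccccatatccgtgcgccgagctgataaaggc
SRSF3: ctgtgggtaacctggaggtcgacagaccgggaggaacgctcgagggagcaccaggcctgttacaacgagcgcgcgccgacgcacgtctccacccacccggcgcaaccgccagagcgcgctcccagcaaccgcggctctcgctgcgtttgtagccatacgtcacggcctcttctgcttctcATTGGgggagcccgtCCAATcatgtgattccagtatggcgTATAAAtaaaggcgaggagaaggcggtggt
SRSF6: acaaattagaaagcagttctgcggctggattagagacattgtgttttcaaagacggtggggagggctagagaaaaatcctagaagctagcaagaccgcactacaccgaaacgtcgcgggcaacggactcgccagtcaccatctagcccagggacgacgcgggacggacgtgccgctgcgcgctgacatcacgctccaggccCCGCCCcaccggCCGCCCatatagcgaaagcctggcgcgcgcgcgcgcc
CLK4: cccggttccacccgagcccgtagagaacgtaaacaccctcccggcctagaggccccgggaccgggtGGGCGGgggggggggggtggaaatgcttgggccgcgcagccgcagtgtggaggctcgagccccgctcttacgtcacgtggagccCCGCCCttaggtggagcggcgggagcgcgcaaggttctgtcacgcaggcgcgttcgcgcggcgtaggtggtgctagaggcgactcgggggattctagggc

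The SRSF1 window held none of the 6 motifs. The SRSF3 window held TATAAA at position -30 from the start and CCAAT, once on each strand, at -70 and -55, and the SRSF6 and CLK4 windows held GGGCGG only, in 2 copies each. Both windows of SRSF7, which was lower with TMM scaling, held GGGCGG and the SRSF5 window did not. A relation of the motifs to the change with NCD was not tested. Over the 12 windows of members, GGGCGG was found in 8, against 42.6% of all 35116 windows. The windows of CLK1 overlap each other, as do those of SRSF7, so some of these sites were counted in both windows. TATAAA was found in 2 of 12 (10.7% of all windows), CCAAT in 2 (32.01%) and CCGGAA in 2 (14.5%). TGACGTCA and TGATGNAA were found in 0 of 12, against 1.65% and 3.14% of all windows. These matches describe letters in the windows and no binding was measured.

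Of the 7 further SR protein genes tested (SRSF4, SRSF8, SRSF9, SRSF10, SRSF11, TRA2A and TRA2B), 0 were called, and their log2 fold changes ranged from -0.55 to -0.06. TRA2A went from 121 ± 3.98 to 82.6 ± 4.37 CPM and TRA2B from 347 ± 5.06 to 245 ± 9.76 CPM (SD over 3 libraries). Both bind purine-rich exonic enhancers, and their log2 fold changes were -0.55 and -0.50 (edgeR adjusted p = 5.22e-05 and 3.86e-05). In the wider list of 28 other SR and SR-related proteins, 27 could be tested, of which 2 were called lower and 0 higher, with a median log2 fold change of -0.24. The 2 called were 7.41% of those tested, against 17.5% called lower among all tested genes. These 2 were RSRC1, a coiled-coil protein with a serine and arginine rich region, at -5.14 (standard error 0.16), and SCAF8, which binds the tail of RNA polymerase II, at -1.79 (standard error 0.12). They span 439.9 and 100.9 kb, in the 2 widest deciles of span, where 79.2% and 46.0% of tested genes were called lower. Without NCD replicate 3, 4 of the list were called lower.

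Of 24 listed other kinases, phosphatases and the importer of SR proteins, 23 could be tested, of which 5 were called lower and 3 higher, with a median of -0.36. These were 21.7% lower and 13.0% higher, against 17.5% and 13.5% of all tested genes. SRPK1, the main cytoplasmic kinase of SR proteins, had 322, 332 and 321 CPM with DMSO and 134, 141 and 155 CPM with NCD. The change was -1.18 in log2 (standard error 0.07, edgeR adjusted p = 5.62e-07), and that of SRPK2 was -2.08 (standard error 0.09, edgeR adjusted p = 1.02e-07). The ratio of CLK1 to SRPK1 counts was 0.179 to 0.195 with DMSO and 0.374 to 0.406 with NCD, so CLK1 counts stood higher against SRPK1 in every NCD library. HIPK2 (-2.81), DYRK1A (-1.59) and CDK13 (-1.63) were the other falls. With SRPK2 they lie in the span deciles above 89.7 kb, where 46.0% and 79.2% of tested genes were called lower. SRPK1 spans 88.4 kb and lies in the decile below these, where 15.6% were called lower and the median was -0.35. Whether each kinase of the list acts on SR proteins was not examined. DYRK1B rose with a log2 fold change of 1.76, DYRK3 with 1.07 and DYRK2 with 1.05. Of the other DYRKs, DYRK1A fell, as given above. DYRK4 was at -0.61 (edgeR adjusted p = 0.000481), short of the fold threshold. TNPO3, which carries phosphorylated SR proteins into the nucleus, went from 112 ± 7.25 to 57.0 ± 2.92 CPM (SD over 3 libraries). Its log2 fold change of -0.98 was short of the fold threshold. TNPO3 spans 101.0 kb, and the median log2 fold change of tested genes in its span decile was -0.93.

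The hnRNPs, many of which oppose SR proteins at splice sites, numbered 26 tested genes with 5 called lower and 0 higher, and their median log2 fold change was -0.54. This was 19.2% called lower, close to the 17.5% of all tested genes. At any fold, 19 of the 26 had an adjusted p below 0.05 with a lower level and 5 with a higher one. In 19 of the 26 every NCD library lay below every DMSO library. Over all tested genes these lower shares were 34.1% and 35.3%. HNRNPA3 (-1.64), PTBP3 (-1.56), HNRNPA1 (-1.15), PTBP2 (-1.12) and HNRNPA2B1 (-1.07) were the 5. PTBP3 and PTBP2 span 116.0 and 102.1 kb, in the span decile where 46.0% of tested genes were called lower. HNRNPA3, HNRNPA1 and HNRNPA2B1 span 11.4, 6.9 and 28.5 kb. HNRNPA3 had 1159, 1149 and 1128 CPM with DMSO and 357, 356 and 387 CPM with NCD. HNRNPA1, the classical antagonist of SRSF1, had 2576, 2338 and 2411 CPM with DMSO and 1130, 1092 and 1089 CPM with NCD, and its counts are uncertain because the gene has many processed copies. Thus SRSF1 and HNRNPA1 were both lower. With library totals 2 of the 26 hnRNPs were called lower.

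Of 45 core spliceosome genes 2 were called lower (4.44%, against 17.5% of all tested genes) and 0 higher, with a median of -0.04. They were DHX15, a helicase that takes the spliceosome apart, at -1.49 (standard error 0.09), and SF3B1, the subunit of U2 snRNP that holds the branch point, at -1.42 (standard error 0.12). DHX15 spans 67.1 kb and SF3B1 45.3 kb, in span deciles where 15.6% and 7.56% of tested genes were called lower. Of 17 nonsense-mediated decay factors, whose targets include the poison exon forms of SR genes, 5 were called lower and 2 higher. These were 29.4% lower and 11.8% higher, against 17.5% and 13.5% of all tested genes. Those called lower included NBAS (-4.97), UPF2 (-1.51), SMG1 (-1.38) and SMG6 (-1.17), while UPF3B (1.30) and SMG8 (1.16) were called higher, and the median of the list was 0.30. NBAS and UPF2 span 394.4 and 123.1 kb, in the 2 widest deciles of span, where 79.2% and 46.0% of tested genes were called lower. UPF1, the central helicase of the pathway, was at 0.43 (standard error 0.07, edgeR adjusted p = 0.000514), short of the fold threshold. With library totals 3 of these factors were called lower. The lists were written by hand, and no test was made over any of them.

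**Figure D4:**
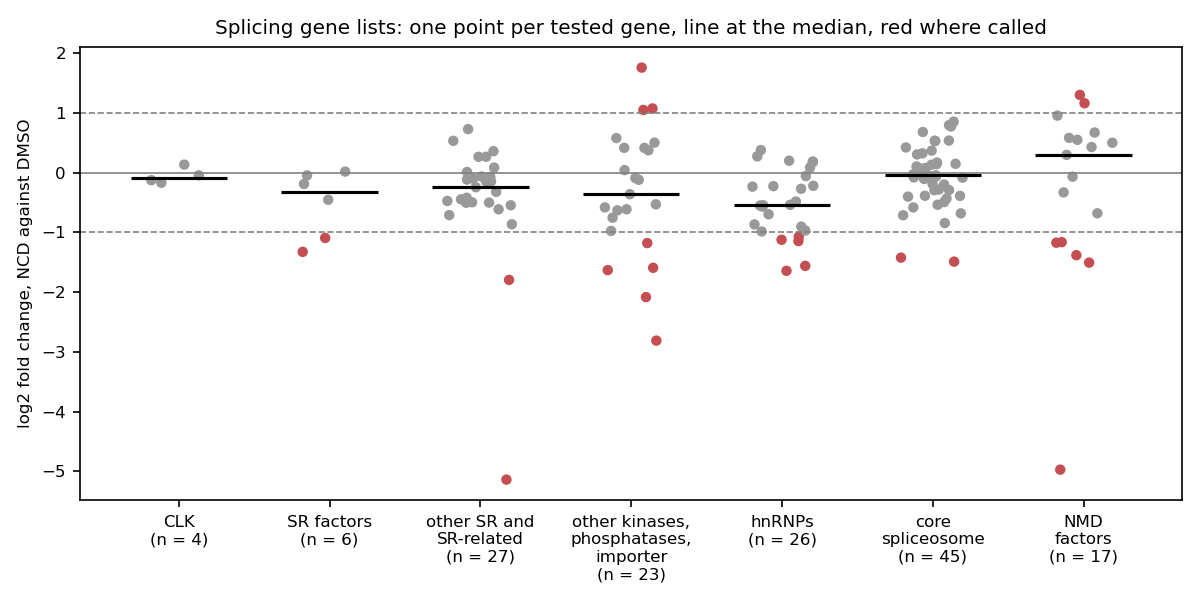
Log2 fold change (y axis) of every tested gene of the CLK, SR and 5 further splicing gene lists, with a line at each list's median, dashed lines at the fold threshold and called genes in red. The CLK points stay close to 0, and the hnRNPs have the lowest median of the 7 lists at -0.54.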

How the data were processed

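Libraries of 1 cell line were compared, 3 with NCD and 3 with DMSO. The authors aligned reads with HISAT2 and deposited expected counts per Ensembl gene from RSEM, not normalized. The submitters' processing notes name GRCh38, and tool versions, annotation release and strandedness are not given in the sources used here. Lines of stray text without a gene identifier (25 per library) were skipped.

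Expected counts were rounded and tested with edgeR 4.0.16 in R 4.3.3 (filterByExpr, TMM, glmQLFit, glmQLFTest, Benjamini-Hochberg over 15295 genes). Standard errors were obtained from the log2 fold change and its F statistic, and 95% intervals use the t distribution with edgeR's total degrees of freedom. The same step was run on simulated counts with far fewer changed genes than were called here, so that run does not cover changes this widespread. Symbols came from a table of Ensembl identifiers, and coordinates and lengths from GENCODE release 29. Alternatives used DESeq2 1.42.0 and limma 3.58.1. The members and lists were chosen with earlier results of these data known. From each list, up to 2 called genes per direction were named by size of change, given 5 CPM or more on average and groups that did not overlap, and where 5 or fewer were called in a direction the rest were named after their values were seen, as were the 7 further SR genes, TNPO3 and UPF1, and the ratios and the sums with overlapping genes were chosen then too. Replicate numbers did not pair the libraries. Protein features were not analysed here, and 1 listed gene is not reported here by name. Intervals cover the spread between libraries only.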

Additional observations from a re-analysis of the deposited data

How the results depend on the processing

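For the 10 members, 14 alternatives were run for each log2 fold change. Of these 140 values, 129 had the sign and the call given above, 10 changed sign and 1 lost the call, with DESeq2 counted once with adjusted and once with unadjusted p. SRSF1 kept its call in all 14, and SRSF3 stayed below the fold threshold with an adjusted p below 0.05 in the 13 that give one, while SRSF7 had such a p in 7. Library totals, which raise the values of all genes, gave 0.073 for CLK1, 0.029 for CLK2, 0.15 for CLK3, 0.15 for SRSF5, 0.0090 for SRSF7 and -0.90 for SRSF2, and left 1 member called lower instead of 2. With DESeq2 the log2 fold change of SRSF6 was -0.0032. When each library was left out, SRSF6 ranged from -0.049 to 0.045 and CLK4 from -0.018 to 0.194; none of these was called, and the cause of the sign changes near 0 was not tested. SRSF2 ranged from -1.12 to -1.09. Without a fold threshold 4 members were lower, and over all genes 5393 were higher and 5209 lower, by construction. At least 10 counts in every library left 1376 higher, from fewer genes tested.

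Libraries with the same replicate number share only that number (correlations of their deviations 0.216, -0.185 and 0.0226). With the replicate block the log2 fold change was -1.33 for SRSF1 and -1.09 for SRSF2, no member's call changed, and the adjusted p of SRSF7 was 0.0511.

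CLK2 and CLK4, with the fewest counts (from 265 and 310), had the largest standard errors (0.13 and 0.12). Overlapping genes with more than 3 counts were found for CLK2, CLK3, SRSF1 and SRSF2.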
